A study of Mus musculus with 3 samples.

Results

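Group 2 innate lymphoid cells (ILC2) were picked out of a single-cell RNA-seq data set of the mouse gallbladder by a rule on detected genes. A barcode counted as an ILC2 when at least 3 of 8 marker genes (Gata3, Il1rl1, Il5, Il13, Areg, Klrg1, Il7r and Rora) had a UMI, with Gata3, Il1rl1, Il5 or Il13 among them. It also had to hold a UMI of Ptprc (CD45), none of the CD3 genes Cd3e, Cd3d and Cd3g, none of Cpa3, Mcpt4, Cd79a and Csf1r, and under 6000 CPM of the epithelial genes Epcam, Krt8, Krt18 and Krt19. A UMI is a counted RNA molecule, and CPM is UMIs per 1000000 UMIs of the same cell or, below, of the same cells summed. The rule found 132 ILC2 among 26017 barcodes with 300 genes or more and at most 20% mitochondrial UMIs, out of 27700 barcodes in all. The gallbladders came from male C57BL/6 mice in 3 groups, which were gavaged orally with vehicle for 6 weeks, with nanoplastics for 3 weeks or with nanoplastics for 6 weeks. Each group was 1 library from 10 pooled gallbladders, dissociated with trypsin, and ages are not given in the sources used here. Barcodes carry a library number, 1, 2 or 3, that neither the labels nor the matrix tie to a group. Values are therefore given per library number, no exposure effect was computed, and no test was made.

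ILC2 are tissue-resident lymphocytes without a rearranged antigen receptor. They depend on the transcription factors GATA3 and RORα, sense epithelial alarmins such as IL-33 through its receptor ST2 (encoded by Il1rl1) and IL-25 through IL-17RB, and respond by secreting IL-5, which supports eosinophils, and IL-13, which acts on epithelium and smooth muscle. In barrier tissues they also release amphiregulin (Areg), an epithelial growth factor, and are tuned by lipid mediators and neuropeptides.

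Depth differed between the libraries and bears on every count of cells below. The 4404, 11561 and 10052 kept barcodes of libraries 1, 2 and 3 had medians of 10703.5, 9666 and 2323 UMIs. The ILC2 themselves held medians of 4995, 2045 and 1387 UMIs (2239 over all, lowest 578, highest 86124). Kept barcodes occurring in more than 1 library numbered 12, 13 and 21 for the pairs 1 and 2, 1 and 3, and 2 and 3, and 0 of them were ILC2. Scrublet called 1 of the 132 a doublet, among 1024 of all kept barcodes (3.94%). Shares in 9044 epithelial barcodes without Ptprc, at a median of 13502 UMIs, serve beside shares of cells as a rough guide to free RNA. The demand for no Ptprc UMI can lower these shares for immune genes. For genes that epithelial cells express themselves, the share is not free RNA alone. Intervals in parentheses are exact 95% Poisson or Clopper-Pearson intervals and cover counting error only, not the spread between cells, animals or libraries.

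Some members went against the label. Gata3, Il5 and Il13 are genes of the rule, so their detection does not by itself show that the label holds. Of the 132, 110 had a UMI of Gata3, Il5 or Il13 (32, 46 and 32 in libraries 1, 2 and 3), and the other 22 (4, 7 and 11) entered through Il1rl1 alone. Exactly 11 of these 22 held 62 to 899 UMIs of H2-Aa, H2-Ab1 and H2-Eb1, the chains of MHC class II that present antigen to helper T cells, with a median of 183, and none of Gata3, Il5 or Il13. The other 121 members held at most 10, so the 11 carried 97.2% of all such UMIs. Cd209a, a lectin of monocyte-derived dendritic cells, was detected in 9 of the 11 and in 0 of the 121, Flt3, a dendritic cell growth factor receptor, in 5 and 0, and Lyz2, a lysozyme of myeloid cells, in 8 and 5. A further 2 of the 22, both in library 3, held 86124 and 36867 UMIs, 20.9% of all UMIs of the 132, with 150 and 69 UMIs of the keratin gene Krt8 and 1 UMI of Il1rl1 each. These cells met the rule but went against its label, and the 22 together held 40.6% of all ILC2 UMIs (23.5%, 18.6% and 74.2% in libraries 1, 2 and 3). A gene found only in the other 110 is therefore diluted in the sums, most of all in library 3. Levels by library are given below in the order 1, 2, 3 for all 132 members, followed in parentheses by the same for the 110, a choice made after the values were seen.

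**Figure D1:**
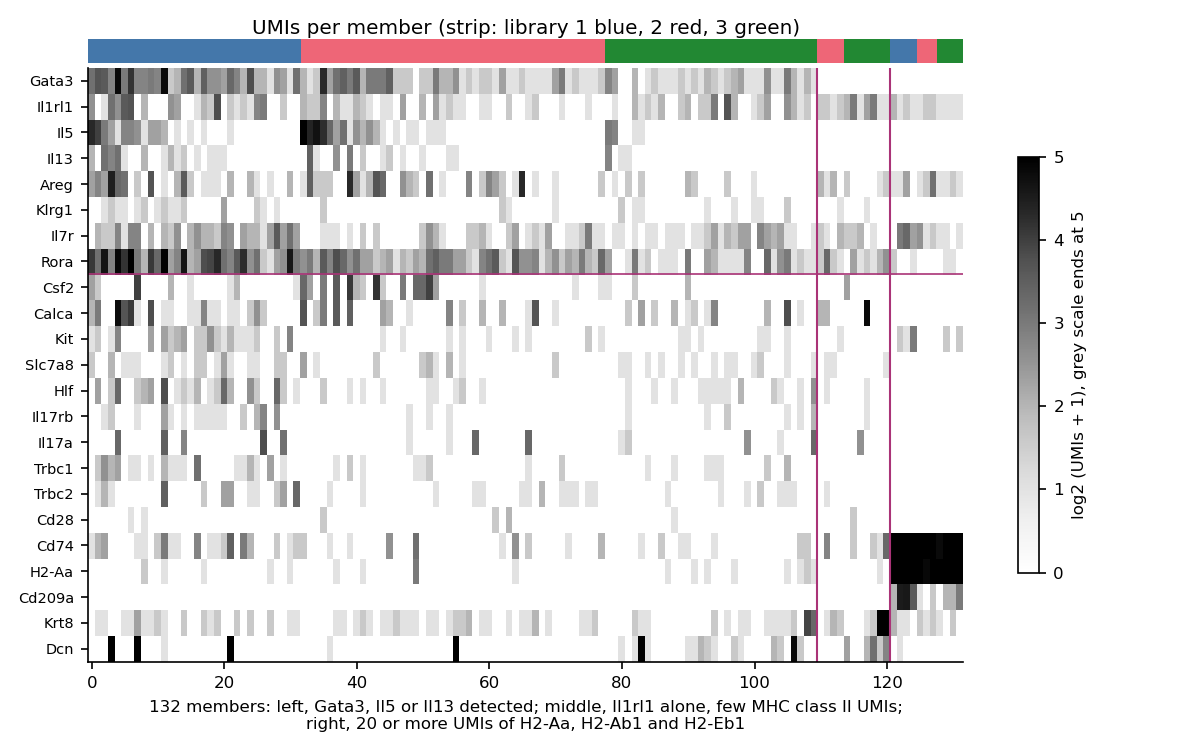
Each column is 1 of the 132 cells and each row a gene; grey is log2 of UMIs plus 1, and the strip gives the library. The genes above the horizontal line belong to the selection rule. The 11 cells at the right are dark for Cd74 and H2-Aa and hold no Gata3, Il5 or Il13, and the 2 cells darkest for Krt8 lie at the right end of the middle block.

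The rule's own genes are given as a description, since they chose the cells. Rora was detected in 116 members, Gata3 in 106, Il7r in 93, Il1rl1 in 88, Areg in 69, Il5 in 39, Klrg1 in 29 and Il13 in 28. Rora and Areg were also detected in 45.8% and 41.2% of epithelial barcodes, whereas the other 6 were in at most 1.38%. Both Gata3 and Il1rl1 were seen in 65 members, Gata3 without Il1rl1 in 41 and Il1rl1 without Gata3 in 23. Exactly 3 markers were detected in 50 members, 4 in 30, 5 in 28, 6 in 15, 7 in 4 and all 8 in 5, each of these 5 in library 1. Just outside the threshold, 71 barcodes met every other limit with 2 markers. Gata3 was detected in 29 of these 71 and in 29 of the 50 members with 3 markers, Il1rl1 in 42 and 27, Il7r in 31 and 33, and Rora in 27 and 37.

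ILC2 made up 0.507% (0.425 to 0.601) of kept barcodes and 3.46% (2.90 to 4.09) of the 3819 Ptprc-positive barcodes that met the limits on other lineages. By library they were 36 of 679 such barcodes (5.30%, 3.74 to 7.26), 53 of 1592 (3.33%, 2.50 to 4.33) and 43 of 1548 (2.78%, 2.02 to 3.72). Library 1 was highest. With the 110 members alone the shares were 4.71%, 2.89% and 2.07%. When every barcode was thinned to 1000 UMIs and shallower ones were left out (500, 618 and 1856 kept barcodes, among them 0, 1 and 8 ILC2), 59 met the rule, and the shares were 3.33% (1.91 to 5.35), 2.56% (1.65 to 3.79) and 2.66% (1.61 to 4.13). At equal depth the shares of libraries 2 and 3 were close to each other and library 1 was again highest. The limit on CD3 was also judged on thinned counts, where Cd3g, Cd3d and Cd3e were seen in 45.6%, 39.1% and 24.2% of T cells. T cells left without a CD3 UMI could thus count among the 59. T cells meeting the 3-of-8 marker rule at full depth numbered 69, 77 and 29 in libraries 1, 2 and 3. Their part in the thinned shares was not tested, so these shares do not order ILC2 by library. Each share rests on 1 library, and no test of the difference was made. T cells, defined by Ptprc and CD3, numbered 1072 (227, 661 and 184), and natural killer (NK) cells, defined by at least 2 of 7 markers without CD3, 47 (8, 15 and 24).

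**Figure D2:**
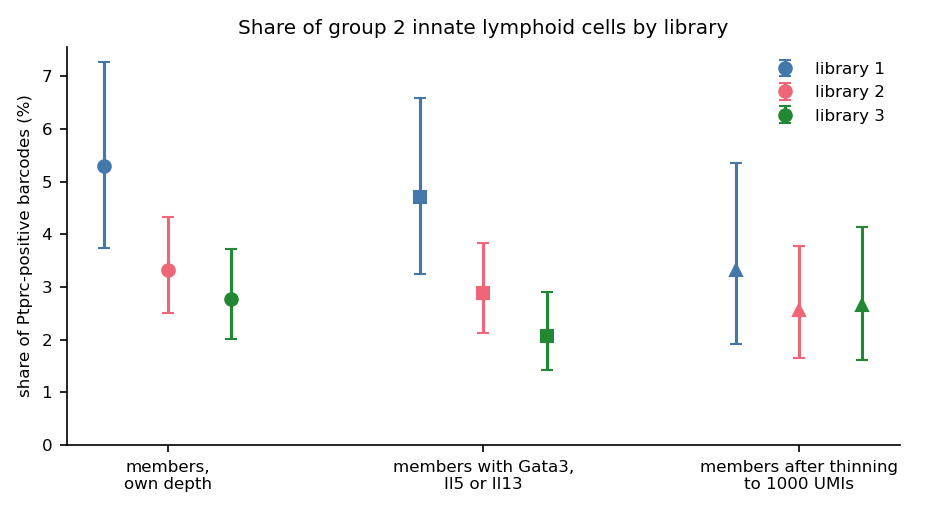
Share of Ptprc-positive barcodes, in percent, by library number, for the 132 members, for the 110 with Gata3, Il5 or Il13, and after thinning to 1000 UMIs; bars are exact 95% Clopper-Pearson intervals. Library 1 stands highest at its own depth (5.30%), and the 3 shares lie between 2.56% and 3.33% after thinning. The rule was applied again to the thinned counts, so T cells left without a CD3 UMI can be among the thinned shares.

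Transcripts of the hallmark cytokines were found in a minority of cells and were unevenly spread. Il5 stood at 309, 1203 and 71.6 CPM (404, 1479 and 277). Its UMIs lay in 39 members (16, 19 and 4) with 1 to 39 each, and the top 5 cells carried 50.2%. Il13 stood at 156, 262 and 38.2 CPM (205, 322 and 148), in 28 members (14, 11 and 3). Library 2 was highest and library 3 lowest for both, with all members and with the 110. Either cytokine was detected in 52 members (22, 24 and 6) and both in 15. The T cells, which had a similar median depth (2403.5 UMIs), showed Il5 in 0.373% and Il13 in 0.56% of cells, and the epithelial barcodes showed them in 0.155% and 0.0663%. In the type 2 cytokine locus on chromosome 11 (GENCODE M21, GRCm38), Il13 spans 53631324 to 53634702 and Il5 53720794 to 53725106. Il4, between 53602982 and 53618669 in the same locus, encodes the cytokine that directs helper T cells and B cells in type 2 responses. It was detected in 14 members and stood at 50.9, 24.6 and 14.3 CPM (66.5, 30.2 and 55.4), a range that includes the 32.1 CPM of T cells.

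The 250 bases before the start sites of Il5 and Il13 are shown because GATA3, the factor that marks these cells, is known to act on both promoters. They come from RefSeq (GRCm38.p6), in the direction of transcription. Capitals mark matches to AGATAA or to AGATAG, or to the forms TGATAA or else TGATAG, letters bound by GATA factors, searched on both strands.
Il13, chr11:53634703-53634952, minus strand: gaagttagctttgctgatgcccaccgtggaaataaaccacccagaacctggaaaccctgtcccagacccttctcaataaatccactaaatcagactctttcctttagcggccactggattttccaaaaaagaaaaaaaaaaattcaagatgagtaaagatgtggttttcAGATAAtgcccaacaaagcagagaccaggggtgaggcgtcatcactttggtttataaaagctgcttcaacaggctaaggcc
Il5, chr11:53720544-53720793, plus strand: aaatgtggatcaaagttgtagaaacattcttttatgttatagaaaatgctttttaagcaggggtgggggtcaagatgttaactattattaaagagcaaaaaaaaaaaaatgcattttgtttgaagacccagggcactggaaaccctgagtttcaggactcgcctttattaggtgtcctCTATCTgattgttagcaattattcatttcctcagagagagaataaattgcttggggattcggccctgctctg
Each held 1 match and no overlapping ones, beginning 81 bases before the start site in Il13 and 72 bases before it in Il5, where the letters read as the reverse complement. Of 32851 RefSeq promoter windows of this length, 8718 (26.5%) held at least 1 match, so a match by itself is common.

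Other secreted factors were more prominent than Il4. Csf2, which encodes the myeloid growth factor GM-CSF, stood at 117, 966 and 47.7 CPM (153, 1187 and 111), in 29 members (8, 17 and 4). The T cells held 23.7 CPM, and the pooled difference was 3.50 on the log2 scale (4.22 for the 110 members). Calca, the gene of the neuropeptide CGRP and of calcitonin, stood at 395, 688 and 310.1 CPM (517, 785 and 701), in 48 members, and was 2.47 above T cells on the log2 scale (3.02 for the 110). Both genes were higher than in the T cells of the same library in each of the 3 libraries, where these held 29.9, 23.6 and 9.36 CPM of Csf2 and 92.8, 71.5 and 54.3 CPM of Calca. Areg, a gene of the rule, stood at 403, 1195 and 109.7 CPM (496, 1288 and 239.9), highest in library 2. Ccl1, a chemokine for CCR8, stood at 82.2, 295 and 4.77 CPM (107, 362 and 0), with most of its UMIs in library 2. Arg1, the arginase of type 2 immunity, stood at 149, 65.5 and 9.54 CPM (194, 80.5 and 36.9), highest in library 1. Il6 was detected in 16 members and stood at 66.5, 40.9 and 157 CPM (86.9, 50.3 and 203), against 23.2 CPM in T cells. A single library 1 member held 10 UMIs of Il6 and 5 of the cytokine gene Lif. It also held 61 UMIs of Dcn and 30 of Col1a2, which are fibroblast genes. Another library 1 member held 15 UMIs of Csf2 together with 280 UMIs of Dcn and 104 of Col1a2. The part of fibroblast RNA in Csf2, Il6 and Lif was not tested.

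Some cytokines linked to ILC2 or T cells were rare or missing. Il9, Il2 and Il3 had 0 UMIs in all 132 members, which allows up to 6.28 CPM as the upper Poisson limit, and Il10 had 2 UMIs. The chemokine genes Ccl5 and Xcl1, typical of cytotoxic lymphocytes, were lower than in T cells, Ccl5 at 233 against 1242 CPM and Xcl1 at 66.4 against 301. Of the 20 genes in the list of secreted effectors, 13 outside the rule reached a mean of 10 CPM over ILC2 and T cells. A gene counted as called when its summed CPM differed at least 2-fold; over all 8311 genes this held for 12.2% on the higher side and 7.6% on the lower side. Of the 13 secreted factors, 6 were called higher (Csf2, Calca, Arg1, Ccl1, Il6 and Lif) and 3 lower (Ccl5, Xcl1 and Penk), with a median log2 difference of 0.67 against 0.01 over all genes. Taking the 110 members with Gata3, Il5 or Il13 gave 6 higher and 3 lower, against 8.15% and 10.2% of all 8311 genes.

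**Figure D3:**
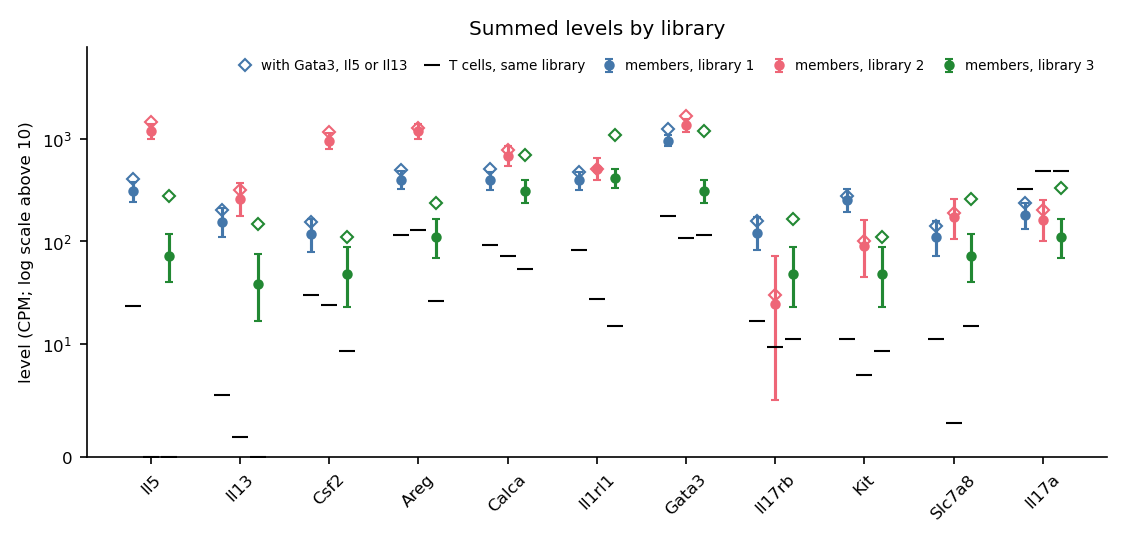
Summed level in CPM, on an axis that is logarithmic above 10, of 11 genes in all members of each library (points, with exact 95% Poisson intervals), in those with Gata3, Il5 or Il13 (open diamonds) and in the T cells of the same library (black dashes). Il5, Il13, Csf2 and Areg are highest in library 2, and Il17a is the gene whose points lie below the dashes in each library.

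The receptors for alarmins were present in differing numbers of cells. Il1rl1, a gene of the rule, stood at 395, 516 and 419.8 CPM (481, 513 and 1107), the highest value being that of the 110 in library 3. Il17rb, the IL-25 receptor chain that the rule did not use, stood at 121, 24.6 and 47.7 CPM (159, 30.2 and 166), lowest in library 2. It was detected in 25 members and 0.509% of epithelial barcodes, and T cells held 12.4 CPM. Its difference from T cells was 2.59 on the log2 scale and 3.31 for the 110 members. Crlf2, the receptor chain for TSLP, was detected in 15 members and did not reach 2-fold against T cells (35.8 against 53.2 CPM). Il1rap, the partner chain of ST2 in the IL-33 receptor, stood at 15.3 CPM, 25.8 in the 110 and 12.2 in T cells.

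Among receptors for lymphocyte growth factors, Il2ra (CD25) stood at 164, 442 and 62.0 CPM (215, 523 and 185), in 51 members. T cells held 94.0 CPM, so the 186 CPM of all members lay just under 2-fold above them and the 298 CPM of the 110 over 2-fold. Il9r, a growth receptor of ILC2, was low but higher than in T cells, at 27.2 CPM (45.8 in the 110) against 3.76, with 14 of its 16 UMIs in library 1. Il10ra, the receptor for IL-10, stood at 97.8, 147 and 90.6 CPM (113, 171 and 203), against 20.3 CPM in T cells. Il2rb, Ifngr1 (the interferon gamma receptor), Il18r1 and Tnfrsf4 (OX40) were at least 2-fold lower than in T cells, Ifngr1 at 419 against 1221 CPM and Il18r1 at 71.5 against 233. In the 110 members Il2rb no longer reached 2-fold (-0.43 on the log2 scale). Of 18 receptor genes outside the rule and above the minimum, 3 were called higher and 4 lower, and 7 and 3 with the 110 members, where Il2ra, Il1rap, Tnfrsf18 and Tnfrsf9 joined the higher genes. Over all genes the shares were 12.2% and 7.6%, and 8.15% and 10.2% with the 110. Il7r, shared by T cells and ILC2, was at 438 CPM (607 in the 110) against 820.1 in T cells.

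Receptors for lipid mediators and neuropeptides showed a mixed pattern. Ptgir, the prostacyclin receptor, was detected in 19 members and stood at 70.4, 57.3 and 23.9 CPM (86.9, 70.4 and 73.8). T cells held 3.76 CPM, a log2 difference of 3.76, so the gene was higher in ILC2 with either set of members. Vipr2, a receptor for the vasoactive intestinal peptide, was also higher than in T cells (35.8 against 4.34 CPM), with 17 of its 21 UMIs in library 1. Vdr, the vitamin D receptor, was called higher but had 0 UMIs in the 110. Ptgdr2, the prostaglandin D2 receptor CRTH2 that often marks ILC2, had 0 UMIs, and Nmur1, the neuromedin U receptor, was detected in 5 members and in 0.187% of T cells. Ramp3 and Ramp1, accessory chains of receptors for CGRP-like peptides, stood at 259 and 71.5 CPM (332 and 97.4 in the 110), against 782 and 133 in T cells. Gpr183, an oxysterol receptor, and S1pr1, which guides lymphocyte exit from tissue, were at least 2-fold lower than in T cells, S1pr1 with 5 UMIs (8.51 against 94.9 CPM). Nr3c1, the glucocorticoid receptor, led the list at 429 CPM (378 to 485) and was within 2-fold of T cells. Ahr, the aryl hydrocarbon receptor, stood at 69.8 CPM against 46.9. Of 15 genes compared, 3 were called higher and 4 lower, beside 12.2% and 7.6% of all genes, with a median log2 difference of 0.10.

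Of 21 genes of transcription factors of innate lymphoid cells outside the rule, 3 were called higher than in T cells and 5 lower, beside 12.2% and 7.6% of all genes. In the 110, 5 of them were higher and 3 lower, beside 8.15% and 10.2%. Id2, which all innate lymphoid cells need, led the list outside the rule at 872, 1547 and 458 CPM (916, 1841 and 1255) in 95 members. T cells held 585 CPM, a log2 difference of 0.56 with all members and 1.07 with the 110, and epithelial barcodes had it in 68.1%. Hlf, a PAR bZIP factor, stood at 305, 98.2 and 100.2 CPM (399, 111 and 369) and was detected in 44 members, 33.3% against 12.9% of T cells. T cells held 66.6 CPM and epithelial barcodes had it in 2.78%. Tox, a factor of lymphoid development, and its relative Tox2 were also higher, Tox at 100.5 against 34.1 CPM and Tox2 at 25.5 against 9.26. Tcf7, Zbtb16 (PLZF), Maf, Bcl11b and Stat5b were called lower, Tcf7 at 27.2 against 116 CPM and Zbtb16 at 27.2 against 113. In the 110 members Bcl11b and Stat5b were within 2-fold, at -0.50 and -0.83 on the log2 scale. Maf was at -0.98, just inside 2-fold.

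Surface and homing genes differed from T cells mainly by lower levels. Icos, a costimulatory receptor, stood at 82.2, 262 and 157 CPM (107, 302 and 591). It was lower than the 1019, 939 and 857 CPM in the T cells of the same libraries, for both sets of members. Cd2, Cd27, Itgae (the CD103 integrin chain), Ctla4, Thy1, Ccr6, Cxcr4 and Vsir were also called lower, Cxcr4 with all members but not with the 110 (-0.65 on the log2 scale). Cd2 had 3 UMIs (5.11 against 161 CPM), Cd27 9 UMIs and Itgae 2. Kit, a stem cell factor receptor also carried by some innate lymphoid cells and by mast cells, was detected in 42 members and stood at 254, 90.0 and 47.7 CPM (281, 101 and 111), against 8.97 CPM in T cells. It was higher than in the T cells of the same library in all 3. The list of mast cell and basophil genes, of which the rule sets Cpa3 and Mcpt4 to 0, summed to 51.1 CPM (77.3 in the 110) against 24.9 in T cells. Most of it was Hdc, the enzyme that makes histamine, with 27 UMIs in 10 members, 25 of them in 9 of the 110. Hdc was within 2-fold of T cells with all members (0.92 on the log2 scale) and higher with the 110 (1.56). Fcer1a, Tpsb2 and Tpsab1 had 1 UMI each, Mcpt8, Ms4a2 and Cyp11a1 had 0, and the part of mast cell RNA in the level of Kit was not tested. Cd200r1, an inhibitory receptor, was higher (56.2 against 20.0 CPM), as was Itga4, an integrin chain (184 against 89.1 CPM). The residency and homing receptors Cxcr6 and Ccr2 stood at 298 and 271 CPM and were within 2-fold of T cells. In all, 3 of 21 genes were called higher and 9 lower, beside 12.2% and 7.6% of all genes. Of these, 1 and 7 reached 2-fold in each library, against 1.74% and 1.77% of all genes.

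Genes of activation and metabolism were expressed broadly. Immediate early genes summed to 21411 CPM in ILC2, 18979 in T cells and 16461 in epithelial barcodes, and trypsin dissociation was common to all libraries. Of 23 such genes, 5 were called higher than in T cells (Fosb, Nr4a1, Nfkbia, Zfp36 and Rel) and 1 lower (Dusp2), beside 12.2% and 7.6% of all genes. With the 110, Zfp36 and Rel were within 2-fold, at 0.95 and 0.89 on the log2 scale. Nr4a1, a target of receptor signalling, stood at 802, 745 and 1622 CPM (936, 795 and 3544), against 455, 279 and 1458 CPM in the T cells of the same libraries, so library 3 was high in both cell types. Among metabolic genes, Slc7a8, an amino acid transporter, was detected in 42 members and stood at 109.5, 172 and 71.6 CPM (143, 191 and 258), against 7.81 CPM in T cells. Dgat2, which makes triglycerides, stood at 211, 180.1 and 42.9 CPM (261, 201 and 36.9), against 16.8 CPM, but was also detected in 46.7% of epithelial barcodes. Alox5, the enzyme of leukotriene synthesis, had 11 UMIs, and Tph1, which makes serotonin, had 21 in 7 members, 20 of them in library 1. Alox5ap, the partner of Alox5, was called higher with all members and had 0 UMIs in the 110. Of 20 metabolic and survival genes, 4 were called higher and 2 lower, beside the same shares of all genes. With the 110 the counts were 4 and 4, beside 8.15% and 10.2%. Bcl2a1b, a survival gene, was lower (121 against 383 CPM).

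At least 1 UMI of the 10 proliferation genes was found in 49 ILC2 (37.1%). Pcna, the replication clamp, was detected in 36 members, 27.3% against 25.7% of T cells, and Mki67, a marker of cycling cells, in 8 (4, 3 and 1), whose median was 7263 UMIs. The list summed to 1049, 172 and 224 CPM by library (987, 161 and 148 in the 110). Against T cells 7 of 9 genes were called higher, beside 12.2% of all genes, yet 0 reached 2-fold in each library. With the 110, 8 of the 9 were higher (8.15% of all genes), and Stmn1, Top2a and Cdk1 were among those called with both sets. Much of this RNA lay in a few library 1 cells. Those with 21460, 11712 and 22446 UMIs held 15, 18 and 17 UMIs of Mki67 and 27, 21 and 33 of Stmn1. The first 2 belong to the 110, whose Mki67 UMIs were 16 in cells with Il5 or Il13 and 19 in cells without. The cell with 11712 UMIs also held 3 UMIs of Ncr1, 7 of Nkg7 and 8 of Ifng, genes of the NK list. It held none of Il1rl1, Il5 or Il13, and whether it was an ILC2 was not tested. The last entered through Il1rl1 alone and held 297 UMIs of H2-Aa. Library 1 stood highest for this list, and its ILC2 were also the deepest. Pooled, the list summed to 572 CPM in ILC2, 268 in T cells and 959 in NK cells. Against NK cells 0 of 8 genes were called higher and 3 lower, beside 15.1% and 18.1% of all genes.

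Shares of cells with a UMI were also compared after each cell was thinned to 1000 UMIs, which left out 9 ILC2 and 34 T cells. Csf2 was then detected in 20 of 123 ILC2 (16.3%, 10.2 to 24.0) and 20 of 1038 T cells (1.93%, 1.18 to 2.96). Kit was detected in 17 of 123 ILC2 (13.8%, 8.26 to 21.2) and 8 of 1038 T cells (0.771%, 0.333 to 1.51), and Calca in 30 of 123 ILC2 (24.4%, 17.1 to 33.0) and 60 of 1038 T cells (5.78%, 4.44 to 7.38). Slc7a8 was detected in 20 of 123 ILC2 (16.3%, 10.2 to 24.0) and 5 of 1038 T cells (0.482%, 0.157 to 1.12). The share was higher in ILC2 for these 4 genes, none of which the rule used. They were picked from a chosen set of thinned genes, and no share over all genes was computed beside them. Icos went the other way, with 24 of 123 ILC2 (19.5%, 12.9 to 27.6) and 529 of 1038 T cells (51.0%, 47.9 to 54.0). By library the thinned shares of ILC2 were 5.56%, 28.8% and 8.57% for Csf2, 22.2%, 26.9% and 22.9% for Calca and 33.3%, 5.77% and 5.71% for Kit, with library 2 highest for Csf2 and library 1 highest for Kit.

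Set against all 1072 T cells, 1018 of 8311 genes (12.2%) were called higher in ILC2 and 632 (7.6%) lower. The difference reached 2-fold in each of the 3 libraries for 145 genes (1.74%) on the higher side and 147 (1.77%) on the lower side. With the 110 members, 732 of 8064 genes were higher (9.08%) and 718 lower (8.9%), and 425 and 421 of the genes called with all members were called in the same direction. The higher genes were 61.7% of those called, 50.5% with the 110 members, and 42.9% (614 higher and 816 lower) when each library was given the same weight. CD3 and the marker rule separated the classes, so these counts describe the classes and support nothing further.

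The leading genes, here and below, are the 15 with the largest fold among those called higher and on the same side in each library. Some genes outside the lists led the comparison with T cells in both sets of members. Ccdc184, a coiled-coil gene, stood at 164, 360.2 and 28.6 CPM (215, 443 and 92.3), against 4.34 CPM in T cells, and was detected in 52 members and 0.84% of T cells. Dach2 stood at 34.1 against 1.16 CPM, and Nrgn, a calmodulin-binding protein, at 164, 221 and 33.4 CPM (215, 242 and 111) against 5.50. Nrgn and Ccdc184 were lowest in library 3 for both sets of members. Kit, Slc7a8, Ptgir and Csf2, given above, and Cx3cl1, a membrane-bound chemokine, were also among the leading genes of both sets. Cx3cl1 was detected in 57.6% of epithelial barcodes. With the 110 members the leading genes further held Rnf217, Apod, Dgat2, Stab2, Neb, Il17rb and Sox5. Neb, which encodes nebulin, was detected in 21 members and stood at 109.5, 172 and 38.2 CPM (143, 191 and 129), against 14.8 CPM in T cells.

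The leading genes of all 132 members also included Ccl9, Cd40, Mgl2, Cybb, BC028528, Dll1 and Tnip3. In the 110 members Ccl9 was at 2.86 CPM in place of 81.7, Mgl2, a lectin of dendritic cells and macrophages, at 0 in place of 160.0, and Tnip3 at 2.86 in place of 174. Cd40 was at 0 and BC028528 at 2.86 CPM there, and Cybb, a subunit of the phagocyte oxidase, at 11.5 in place of 64.7. Most UMIs of these 6 genes lay in the 22 cells that entered through Il1rl1 alone. Dll1, a Notch ligand, was of similar size in both sets (61.3 and 80.2 CPM).

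The 10 leading genes on the lower side were mostly those of T cells, from which the CD3 limit had separated the members. Cd163l1, a gene of gamma delta T cells, had 1 UMI in ILC2 and 444 in T cells (128 CPM), and Cd40lg, the ligand for CD40, had 2 and 388. Trac stood at 15.3 against 358 CPM and Trdc at 6.81 against 167. Ly6c2, Gzmb and Klrc2, linked to cytotoxic or memory lymphocytes, had 1 UMI each, and the signalling genes Blk and Cd5 had 2 each. All 12 genes of the T cell list were called lower (11 with the 110), beside 7.6% of all genes (10.2% with the 110). Cd8a and Themis were at 0 UMIs.

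**Figure D4:**
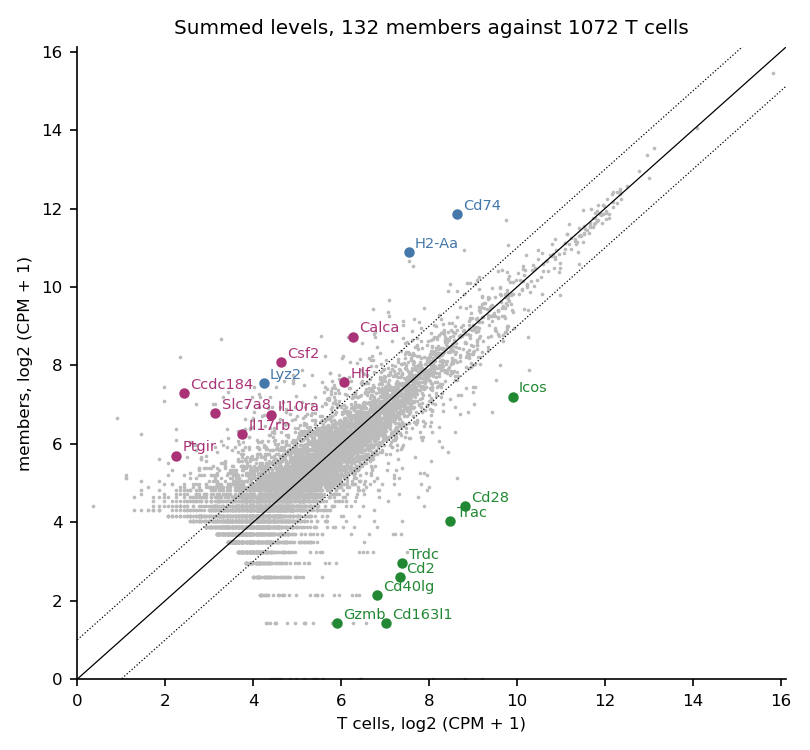
Each point is a gene; the axes give log2 of summed CPM plus 1 in 1072 T cells (horizontal) and 132 members (vertical), the solid line marks equality and the dotted lines 2-fold. Csf2, Calca and Ccdc184 lie above the upper dotted line, as do H2-Aa and Cd74, whose UMIs lie mostly in 11 cells, and Icos, Trac and Cd163l1 lie below the lower one.

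A closer comparison used the 175 T cells that met the same 3-of-8 marker rule but held CD3. The lower genes were again those of T cells: Cd163l1, Cd40lg, Cd2, Blk, Trdc, Trac, Cd28, Itgae, Gzmb and Lef1 led, with Cd28, a costimulatory receptor, at 20.4 against 367 CPM. Of 8191 genes, 1180 (14.4%) were called higher in ILC2 and 704 (8.59%) lower, 44 (0.537%) and 129 (1.57%) of them by 2-fold in each library. With the 110 members the counts were 872 (10.9%) and 726 (9.06%) of 8010. The higher genes were 62.6% of those called, 54.6% with the 110, and 47.3% (971 higher and 1082 lower) when each library was given the same weight. On the higher side the leading genes changed with the choice of members. With all 132, Mgl2, H2-Eb1, Plbd1, H2-Aa, H2-Ab1, Ccl9, Cd74, Itgam, Alox5ap, Wfdc17, Tnip3, Ccl6, Stxbp6, Lyz2 and Cx3cl1 led. With the 110 they were Nrgn, Stab2, Klrb1b, Bmp2, Ccdc184, Kit, Eepd1, Dach2, Csf2, Ptgir, Rab27b, Rasl11a, Slc7a8, Il10ra and Il6. H2-Aa, for example, was at 1886 CPM in all members, 71.6 in the 110 and 28.0 in the matched T cells.

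The 8 markers chose the matched T cells too, so their levels of Il5 (44.2 CPM), Il13 (13.3 CPM) and Il1rl1 (218 CPM) follow from that choice and are given as a description. Csf2, outside the rule, stood at 50.1 CPM in them, between the levels of all T cells and of ILC2. It was higher in ILC2 by 2.43 on the log2 scale, Calca by 1.85, Kit by 3.05, Il10ra by 2.16 and Hdc of the mast cell list by 1.79. Il17rb was at 38.3 CPM in the matched T cells, just within 2-fold of all members but not of the 110 (123 CPM). Of the secreted effectors, 4 of 13 genes outside the rule were called higher and 1 lower, beside 14.4% and 8.59% of all genes.

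Against the 47 NK cells cytotoxic genes marked the difference. Gzma, a granzyme, had 0 UMIs in ILC2 and 338 in NK cells, at least 547-fold lower with a floor of 3 UMIs over the class. Prf1 (perforin), Klre1, Klra4 and Eomes, an NK cell transcription factor, were also at 0 in ILC2, and Gzmb and Klrc2 had 1 UMI each. Klrb1c and Ms4a4b, also of lymphocytes, were among the leading genes on the lower side. Several of these genes defined the NK cells and are not independent of their choice. Of 8139 genes, 1228 (15.1%) were called higher in ILC2 and 1476 (18.1%) lower, 28 (0.344%) and 153 (1.88%) by 2-fold in each library. With the 110 members they were 1066 (14.3%) and 1294 (17.4%) of 7456.

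The genes that were highest relative to NK cells included Hlf (189 against 8.27 CPM), Calca (426 against 33.1) and Ramp3 (259 against 16.5). Hs3st1, a heparan sulfate enzyme, and Pard3, a polarity protein, also led, and epithelial barcodes held them in 85.9% and 48.9%. Pigr, Ptpn13, Dusp10, Itgav and Lyz2 were also among the leading genes, and 103 of the 109 UMIs of Lyz2 lay in the MHC class II-rich cells. Cish, a feedback inhibitor of cytokine signalling, stood at 309, 344 and 95.4 CPM (384, 413 and 295), against 24.8 CPM in NK cells and 201 in T cells. The matrix genes Col3a1, Sparc and Col14a1 stood at 174, 221 and 136 CPM. Dcn, another matrix gene, reached 20 UMIs or more in 6 members. NK cells were few, with 120946 UMIs in all, which limits the precision of these levels.

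Markers of other cells were checked for each lineage that a gallbladder digest could hold. The NK list of 11 genes summed to 57.9 CPM in ILC2 and 6284 in NK cells, and 5 of its genes were at 0. In ILC2 its 34 UMIs lay in 9 members. The member with 11712 UMIs held 3 of Ncr1, 7 of Nkg7 and 8 of Ifng. Whether such members were NK cells or group 1 lymphoid cells was not tested. Of the mast cell and basophil list, 5 of 9 were at 0, 2 of them by the rule, and Ms4a1 of B cells was at 0. The epithelial list of 10 genes summed to 477, 1138 and 5758 CPM by library, 1068 in T cells and 16375 in epithelial barcodes. With the 110 members it was 517, 1137 and 2362 CPM, so library 3 was highest in both. Fibroblast genes summed to 2887, 1015 and 1140.2 CPM by library (3749, 1238 and 3525 in the 110) and 1875 pooled (2999 in the 110, 1496 in T cells). Smooth muscle genes summed to 62.6, 131 and 959 CPM by library (61.4, 141 and 2362 in the 110) and 397 pooled (441 in the 110, 328 in T cells). In the 110, library 3 was highest of the 3 for epithelial and smooth muscle genes, and libraries 1 and 3 were both above library 2 for fibroblast genes. Genes of macrophages and monocytes summed to 386 CPM and those of dendritic cells to 196, against 48.7 and 25.8 in the 110. Neutrophil genes summed to 133 CPM, endothelial genes to 85.1, and 5 of 6 tuft cell genes were at 0. MHC class II genes summed to 8918 CPM in all members, 498 in the 110 and 991 in T cells. The part of these RNAs in the results was not tested.

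Transcripts of T cell receptor constant genes were present in the CD3-negative members. A UMI of Trac, Trbc1, Trbc2, Trdc or Tcrg-C1 was found in 62 members (25, 21 and 16), of which 44 held Trbc1 or Trbc2 without Trac, Trdc or Tcrg-C1. Trac was in 7 members and Trdc in 3, against 52.6% and 13.5% of T cells. Trbc1 and Trbc2 stood at 107 and 112 CPM, against 414 and 693 in T cells. NK cells, which lack a rearranged receptor, held 438 and 306 CPM. Epithelial barcodes, which were chosen without Ptprc, held Trbc1 in 0.874% and Trbc2 in 2.40%, and ILC2 held each in 25%. The part of free RNA in these transcripts was not tested. Whether some of the members were T cells whose CD3 went undetected was not tested either. Without the 62 cells, 70 members were left (11, 32 and 27), 1.83% of Ptprc-positive barcodes.

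Il17a, the cytokine of type 17 lymphocytes, was detected in 15 members (5, 4 and 6), and 8 of these held no Il5 or Il13. It stood at 180.0, 164 and 109.7 CPM (235, 201 and 332), below the 325, 485 and 486 CPM in the T cells of the same libraries. The pooled log2 difference was -1.49, and -0.82 with the 110. The 9 genes of the type 17 list summed to 269 CPM in ILC2 and 732 in T cells. Ifng, the type 1 cytokine, was detected in 2 members, and Foxp3, which marks regulatory T cells, in 1.

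The 110 members differed among themselves along with Il5 and Il13. The 52 with either cytokine had a median of 2449 UMIs, and the 58 with Gata3 and neither had 1860; by library they numbered 22, 24 and 6 against 10, 22 and 26, so library and cytokine status went partly together. Within libraries their depths were closer, with medians of 4715.5 and 4498.5 UMIs in library 1 and 2164 and 1940.5 in library 2. Csf2 was detected in 22 of 52 cells with Il5 or Il13 and 6 of 58 with Gata3 and neither cytokine, and within libraries in 6 of 22 against 2 of 10 in library 1 and 14 of 24 against 3 of 22 in library 2, at a pooled level of 696 against 70.4 CPM. Dgat2 was detected in 26 of 52 cells with Il5 or Il13 and 7 of 58 with Gata3 and neither cytokine, and within libraries in 16 of 22 against 2 of 10 in library 1 and 10 of 24 against 3 of 22 in library 2 (309 against 63.3 CPM). Areg was detected in 35 of 52 cells with Il5 or Il13 and 18 of 58 with Gata3 and neither cytokine (16 of 22 against 4 of 10 in library 1 and 16 of 24 against 10 of 22 in library 2), and Rel, an NF-kappaB subunit, in 39 of 52 cells with Il5 or Il13 and 21 of 58 with Gata3 and neither cytokine (21 of 22 against 6 of 10 in library 1 and 14 of 24 against 12 of 22 in library 2). Tnfrsf18, the costimulatory receptor GITR, was in 34 of 52 cells with Il5 or Il13 and 18 of 58 with Gata3 and neither cytokine (15 of 22 against 0 of 10 in library 1 and 18 of 24 against 12 of 22 in library 2). Each of these genes had a higher share among cytokine-positive cells in libraries 1 and 2, though by little for Csf2 in library 1 and Rel in library 2. A higher share was not particular to them. Id2, for example, was in 42 of 52 against 38 of 58 and the keratin gene Krt19 in 27 of 52 against 16 of 58. Genes with the opposite pattern follow, and no share over all genes was computed beside either group.

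Other genes had the opposite pattern. Icos was detected in 12 of 52 cells with Il5 or Il13 and 30 of 58 with Gata3 and neither cytokine, and within libraries in 6 of 22 against 4 of 10 in library 1 and 5 of 24 against 14 of 22 in library 2 (116 against 415 CPM). Il18r1, the IL-18 receptor, was in 5 of 52 cells with Il5 or Il13 and 18 of 58 with Gata3 and neither cytokine, with 4 of 22 against 2 of 10 in library 1 and 1 of 24 against 8 of 22 in library 2. Its shares in library 1 were thus close. Cxcr4, a chemokine receptor, was in 8 of 52 cells with Il5 or Il13 and 21 of 58 with Gata3 and neither cytokine, but 5 of 22 against 2 of 10 in library 1 and 3 of 24 against 8 of 22 in library 2, so its lower share among cytokine-positive cells was seen in library 2 and not in library 1. Il7r was in 31 of 52 cells with Il5 or Il13 and 46 of 58 with Gata3 and neither cytokine, and Trbc2 in 10 of 52 cells with Il5 or Il13 and 22 of 58 with Gata3 and neither cytokine. Library 3 had 6 cytokine-positive cells, too few for a comparison within it. Areg and Il7r belong to the rule, of whose markers a cell with Il5 or Il13 needed fewer others, and the choice of these genes followed their values. Whether some of the 58 cells were T cells or NK cells was not tested.

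**Figure D5:**
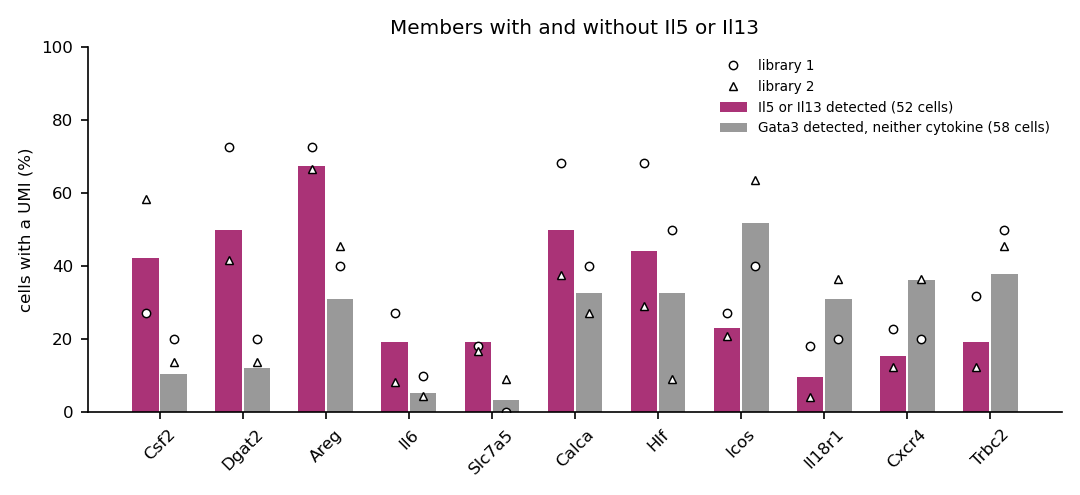
Share of cells with a UMI, in percent, for 11 genes in the 52 members with Il5 or Il13 (purple bars) and the 58 with Gata3 and neither cytokine (grey bars); circles give library 1 and triangles library 2 alone. Csf2, Dgat2 and Areg are higher in the purple bars and in both libraries, Csf2 by little in library 1. Icos and Il18r1 are lower, Il18r1 by little in library 1.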

How the data were processed

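Gallbladder cells were profiled by 10x 3′ single-cell RNA-seq in 3 libraries. The authors deposited 1 matrix of UMI counts over 31053 genes, made with Cell Ranger 6.1.1 on GRCm38/mm10 per the submitters' processing notes, and the counts were used as deposited. Barcodes with fewer than 300 genes or over 20% mitochondrial UMIs were left out. The ILC2 rule, the T cells (Ptprc and a CD3 gene), the 175 T cells meeting the marker rule and the NK cells (2 or more of 7 NK markers, no CD3) were set from detected UMIs. The members, the rule and the gene lists were chosen with earlier results of these data known. Counts were summed per class and expressed as CPM. A gene was compared at a mean of 10 CPM or more over both classes and called at 2-fold; a class at 0 was set to a floor of 3 UMIs over the class, and a gene at or under that floor in both classes was not compared. Genes named outside the lists are the 15 with the largest fold up and the 10 with the largest fold down, among genes called and on the same side in each library, leaving out mitochondrial, ribosomal protein and predicted genes and the genes of the rule. From each list the genes with the highest CPM and those at 0 were to be named, and further list genes, chiefly those called, were named after their values were seen. Since no library number could be tied to a group and each group was 1 library, no p-value was computed. Doublets were called with Scrublet in scanpy 1.11.5 at a threshold of 0.25 and were not removed. Analyses used Python 3.11.15, numpy 2.4.6, scipy 1.17.1 and pandas 2.3.3, and the comparison was tested on simulated counts. Alternatives changed the filters, the marker minimum, the epithelial limit, the CPM minimum, the weights of libraries and the members kept. A few genes that these rules select are not reported here.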

Additional observations from a re-analysis of the deposited data

How the results depend on the processing

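No paired analysis was possible because the library numbers could not be tied to groups and no test was made. The ILC2 share of kept barcodes (0.507%) became 0.315% with 4 of 8 markers, 0.269% without T cell receptor UMIs, 0.365% with an epithelial limit of 1000 CPM, 0.423% with Gata3, Il5 or Il13 required and 0.256% after thinning to 1000 UMIs. The share of Ptprc-positive barcodes (3.46%) became 2.15%, 1.83%, 2.88% and 2.77% under the same settings other than the epithelial limit. Leaving out 1 library gave 0.444% to 0.557% of kept and 3.06% to 3.92% of Ptprc-positive barcodes.

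Genes higher than in T cells (1018) numbered 614 with equal library weights, 231 at a 50 CPM minimum, 145 with 2-fold in each library, and 832 to 1300 without 1 library. Genes lower (632) numbered 995 with 4 of 8 markers, 1013 without T cell receptor UMIs, 191 at 50 CPM, 147 in each library, and 801 to 857 without 1 library. Against matched T cells, higher genes (1180) numbered 252 at 50 CPM, 44 in each library, and 828 to 1639 without 1 library; lower genes (704) numbered 1110 without T cell receptor UMIs, 1082 with equal weights, 219 at 50 CPM, 129 in each library, and 895 to 1055 without 1 library. Against NK cells, higher genes (1228) numbered 343 at 50 CPM, 28 in each library, and 798 (without library 3) to 1085 without 1 library; lower genes (1476) numbered 533, 153 and 1220 to 1571. The 50 CPM minimum and the demand on each library leave fewer genes by construction; for the other shifts the cause was not tested.

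Of the 75 log2 differences of leading genes, 5 turned. Relative to T cells, requiring Gata3, Il5 or Il13 gave Ccl9 -0.39, Mgl2 -0.20 and Tnip3 -2.42, and leaving out members with 20 or more MHC class II UMIs gave Mgl2 -0.68. Tnip3 relative to matched T cells became -1.04 with the same requirement, and Lyz2 relative to NK cells -0.43 without the MHC class II-rich members. The direction of the 75 stayed the same under each of the other settings that gave a value. The settings on Gata3, Il5 or Il13, on MHC class II and on barcodes over 20000 UMIs were chosen after seeing the data. With 132 cells and 587357 UMIs, 1 UMI is 1.70 CPM, so low genes rest on few molecules, and with 1 library per group neither animals nor dissociation can be told apart from the library.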

Other observations

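Further genes divided the 110 members with Gata3, Il5 or Il13 by cytokine status, all chosen after their values were seen. Il6 was detected in 10 of 52 cells with Il5 or Il13 and in 3 of 58 with neither, Slc7a5, an amino acid transporter of activated lymphocytes, in 10 and 2, Cysltr1, a leukotriene receptor, in 12 and 3, and Il4 in 10 and 4. On the other side, Nkg7, a gene of cytotoxic granules, was detected in 0 and 7, and Xcl1 in 1 and 7. Ncr1 and Klrb1c, genes of NK cells, were each detected in 0 and 2. The cytokine-positive cells were deeper on the median (2449 against 1860 UMIs), and the part of depth and library in these counts was not tested. Whether some of the 58 were NK cells or T cells was not tested either. No share over all genes was computed beside these counts.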
